A study of Mus musculus with 32 samples.

Results

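The genes that copy DNA in S phase were followed in mouse liver as a set of 50 members, chosen by gene symbol from the array's probe names, with older symbols allowed. Of these, 45 were among the 21073 genes with a probe bright enough to be tested. The members were grouped by their part in replication into 11 roles. These run from the MCM helicase that opens the double helix to the E2F factors, which activate or repress the genes. The rule used symbols alone and no measured value, but the list of symbols was chosen with earlier results of these data known.

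DNA is licensed for replication in G1, when ORC, Cdc6 and Cdt1 load the ring of Mcm2 to Mcm7 onto origins. In S phase Cdc45 and the GINS complex turn the ring into a working helicase, primase and the polymerases copy both strands, and Fen1 and Lig1 join the lagging strand. Adult hepatocytes are almost all at rest, and most of these genes are transcribed under E2F control when cells enter the cycle, as happens after loss of liver tissue.

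Livers came from male C57/BL6 mice, 8 weeks old at the start and with no engineered allele, in 8 groups of 4 arrays. Group C was fed standard chow and group MCD a diet lacking methionine and choline for 3 weeks, a diet that gives fatty liver with inflammation, and both received saline. The group C+Fc-GLP-1 (on chow) and the group M+Fc-GLP-1 (on the MCD diet) received a long-acting GLP-1 receptor agonist, given every other day over the last 2 weeks, which the labels also describe as a dual GLP1R/GCGR agonist at 4.4 mg/kg/day. Each of the 4 regimens was sampled before partial hepatectomy (PH) and 2 weeks after removal of 70% of the liver, with diet and treatment continued. The study states that each array holds RNA of an independent liver. By the study's account the tissue before PH was what the surgeon removed, from mice of the same groups as those sampled later, but the labels do not pair single animals, and the animals sampled after PH were those that had survived the operation.

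Levels are given as log2 of the 1-colour signal minus the 75th percentile of the same array, so that 0 is the brightness of the 75th percentile. Levels of different genes come from different probes and are not compared. From 36.2% to 69.1% of probes were well above background on an array. All 7 tested hepatocyte markers were well above background on all 32 arrays. Slide and scanner were tied to the design. The comparisons of MCD with C before PH, of M+Fc-GLP-1 with C+Fc-GLP-1 before PH and of the same pair after PH each lay within 1 slide of 8 arrays. C after PH and MCD after PH each had a slide of its own, read on the second of 2 scanners. The diet contrast after PH therefore cannot be told apart from the slide, and changes over time on either diet alone and drug effects after PH cannot be told apart from slide and scanner either. Drug effects before PH, and changes over time under the drug, cannot be told apart from the slide.

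The level at which the members were found varied widely. Signals were well above background on all 32 arrays for 33 members. Orc1, a subunit of the origin recognition complex, and Cdc7, the kinase that fires origins, were well above background on 0 of 32 arrays, the repair gene Brca1 on 1, the MCM loader Cdc6 on 6 and the exonuclease Exo1 on 12, and these 5 were not tested. For Cdc45 this held for all 4 arrays in 1 group only, MCD before PH. None of the members was saturated on any array. In whole liver, fewer cells of a type and less RNA per cell cannot be told apart.

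The stretches before the start sites are shown because these genes share a known regulator, and the genes printed were chosen after their values were seen. RefSeq windows of 300 bases (250 before to 50 after each annotated start, build GRCm38.p6) were held for 41 of the 50 members. The E2F letters TTTCGCGC, TTTGGCGC, TTTCCCGC and TTTGCCGC were searched on both strands, and overlapping matches were counted separately. At least 1 of the 4 runs lay in the windows of 15 of 41 members, 36.6%, against 2.60% of 27025 genes with a window. Among 23 mitosis genes with a window, 1 held such a run, while TTTGAA, the CHR letters known from mitosis genes, lay in 69.6% of them, in 19.5% of the members and in 20.2% of all genes. These are counts of letters and not of bound sites. The runs below are the 250 bases before the start, 5′ to 3′ in the direction of the gene, with matches to the E2F letters in capitals.
Mcm6, chr1:128359706-128359955, minus strand: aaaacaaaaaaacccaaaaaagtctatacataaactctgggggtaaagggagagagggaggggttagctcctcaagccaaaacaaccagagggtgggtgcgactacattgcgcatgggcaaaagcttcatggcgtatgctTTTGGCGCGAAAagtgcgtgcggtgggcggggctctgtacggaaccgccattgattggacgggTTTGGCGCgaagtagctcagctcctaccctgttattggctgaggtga
Mcm5, chr8:75109259-75109508, plus strand: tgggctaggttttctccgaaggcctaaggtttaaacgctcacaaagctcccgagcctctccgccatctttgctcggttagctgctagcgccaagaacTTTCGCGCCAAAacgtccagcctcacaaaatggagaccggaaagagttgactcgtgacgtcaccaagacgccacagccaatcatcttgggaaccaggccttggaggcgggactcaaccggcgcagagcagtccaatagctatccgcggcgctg
Uhrf1, chr17:56304063-56304312, plus strand: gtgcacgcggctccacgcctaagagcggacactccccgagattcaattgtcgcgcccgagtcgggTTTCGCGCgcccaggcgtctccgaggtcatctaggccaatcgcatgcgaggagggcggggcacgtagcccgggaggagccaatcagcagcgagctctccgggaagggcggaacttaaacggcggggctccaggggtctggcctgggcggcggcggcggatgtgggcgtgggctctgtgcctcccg
Pola1, chrX:93632156-93632405, minus strand: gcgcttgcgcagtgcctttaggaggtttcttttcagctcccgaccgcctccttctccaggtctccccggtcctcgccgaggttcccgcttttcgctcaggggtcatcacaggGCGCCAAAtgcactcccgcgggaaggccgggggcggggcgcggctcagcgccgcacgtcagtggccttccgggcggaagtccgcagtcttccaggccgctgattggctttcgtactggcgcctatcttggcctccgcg
Rfc3, chr5:151651209-151651458, minus strand: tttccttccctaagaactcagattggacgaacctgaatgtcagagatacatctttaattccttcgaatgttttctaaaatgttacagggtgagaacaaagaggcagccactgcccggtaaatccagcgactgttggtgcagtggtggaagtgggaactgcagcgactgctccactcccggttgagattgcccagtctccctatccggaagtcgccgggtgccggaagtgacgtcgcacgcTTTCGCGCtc
Rad51ap1, chr6:126939588-126939837, minus strand: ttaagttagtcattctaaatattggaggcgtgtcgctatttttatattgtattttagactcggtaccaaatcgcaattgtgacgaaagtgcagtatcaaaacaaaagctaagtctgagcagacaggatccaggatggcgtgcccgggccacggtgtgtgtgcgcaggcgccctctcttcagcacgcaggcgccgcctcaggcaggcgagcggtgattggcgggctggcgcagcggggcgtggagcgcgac
Mcm6 had 3 matches before its start and Mcm5 had 2, and in each gene 2 of them overlapped on opposite strands. Uhrf1 has 2 annotated starts, and the match lay before the one shown. Rad51ap1, which had one of the largest diet differences, had none of these letters in its window, and neither did Mcm2. Of the members that were higher in MCD than in C before PH, 7 of the 16 with a window held the letters (43.8%), and of the other tested members 6 of 21 (28.6%). The difference between these shares was not tested.

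The members were lowest in livers of chow-fed mice before PH and highest in livers of MCD-fed mice before PH. By group means, 18 of the 45 tested members had their highest level in MCD before PH and 18 their lowest in C before PH, with another 12 lowest in C+Fc-GLP-1 before PH. The median over the members of an array's deviation from each member's own mean ran from -0.45 to -0.15 on the 4 C arrays before PH and from 0.23 to 0.42 on the 4 MCD arrays before PH. On the C+Fc-GLP-1 arrays before PH it ran from -0.33 to -0.17. Among the M+Fc-GLP-1 arrays before PH it was 0.21 to 0.25 on replicates 1, 2 and 4 and -0.31 on replicate 3. After PH it ran from -0.27 on replicate 3 to 0.63 on replicate 1 of the C group, from -0.21 to 0.25 in C+Fc-GLP-1, from 0.19 to 0.33 in MCD and from -0.14 to 0.26 in M+Fc-GLP-1. C after PH was thus the group whose livers lay farthest apart, and the MCD arrays lay above 0 at both times.

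**Figure D1:**
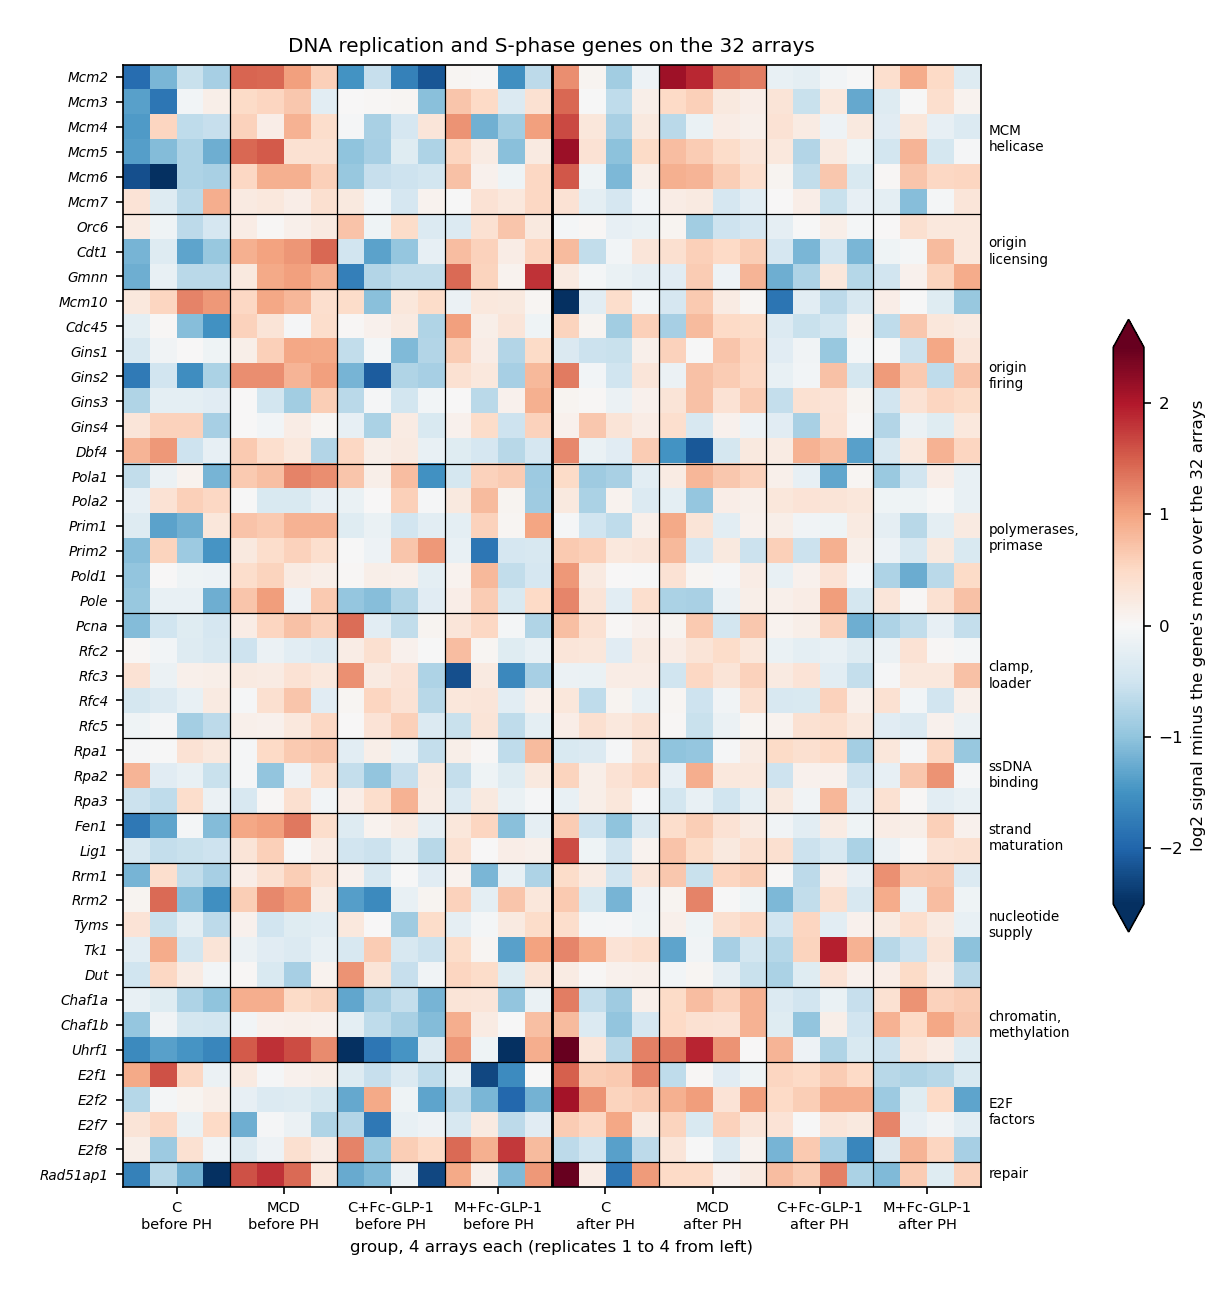
Level of each of the 45 tested members (rows, by role) on each of the 32 arrays (columns, by group), as the log2 deviation from the member's mean over all arrays. The C and C+Fc-GLP-1 arrays before PH are mostly below the means and the MCD arrays before PH mostly above, and replicate 1 of C after PH stands out from its group.

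**Figure D2:**
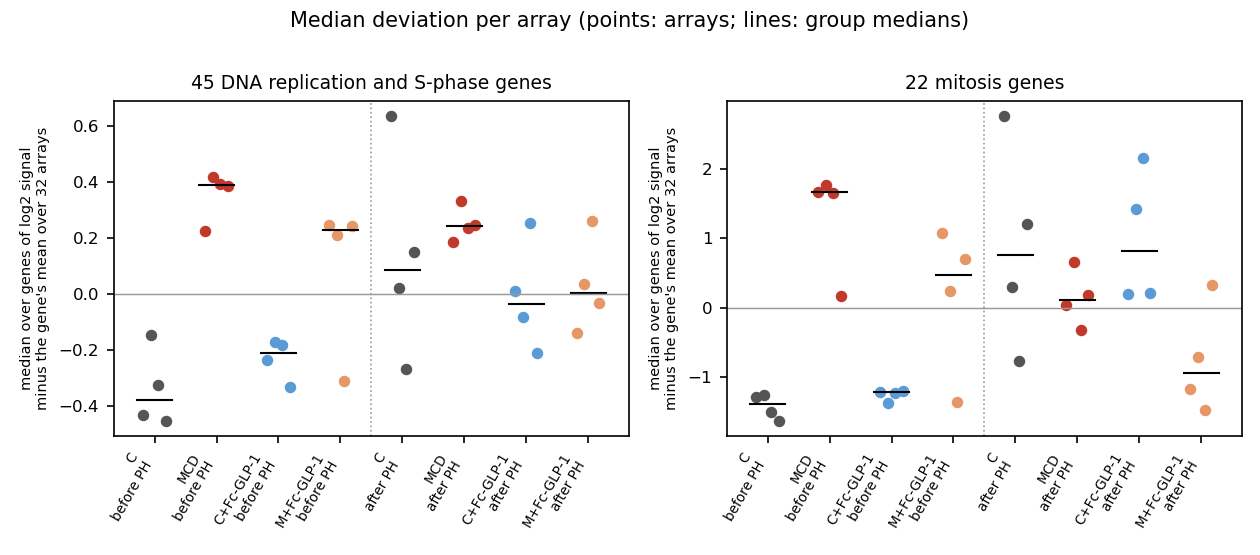
Median log2 deviation over the 45 tested members and over 22 tested mitosis genes on each of the 32 arrays, by group. Replicate 1 of C after PH is highest for both sets (0.63 and 2.75), and replicate 3 of M+Fc-GLP-1 before PH lies apart from the other 3 arrays of its group.

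The first question was what the MCD diet did to the replication genes before surgery. Of the 45 tested members, 20 rose in MCD against C and 0 fell, 44.4% of the members, where 25.9% of all genes passed the test in either direction and 12.2% were higher (limma, Benjamini-Hochberg adjusted p under 0.05 over 21073 genes). The median log2 difference over the 45 members was 0.67, against -0.07 over all genes, and 34 of the 45 differences were above 0. Of the 20, the 12 largest ran from 3.06 for Uhrf1 to 1.29 for Chaf1a. The 20 include Cdc45, which was bright enough to be tested only through MCD before PH. The count was between 14 and 20 when single arrays were left out and between 16 and 26 under the 8 other settings tried.

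Of the 6 subunits of the MCM2-7 ring, Mcm2, Mcm3, Mcm5 and Mcm6 rose, while Mcm4 (1.03, adjusted p = 0.0963) and Mcm7 (0.20, adjusted p = 0.648) did not pass. Mcm2 read -2.90, -2.13, -1.54 and -1.82 on the C arrays and 0.47, 0.45, 0.04 and -0.40 on the MCD arrays. The groups did not overlap, and the difference of 2.24 ± 0.39 (SE, n = 4 per group) was 4.71-fold, with limma's adjusted p = 0.000142. Mcm6 read 0.97, 0.54, 2.38 and 2.35 in C and 3.67, 4.05, 4.05 and 3.75 in MCD. Replicates 1 and 2 of C lay well below the other C arrays, yet all 4 were below every MCD array, and the difference was 2.32 ± 0.40, a 4.99-fold change with limma's adjusted p = 0.000122. Mcm5 read from -1.27 to -0.66 in C and from 0.49 to 1.63 in MCD, a difference of 2.04 ± 0.43. In Mcm3 the groups overlapped and the difference was 1.13 ± 0.42 (limma, adjusted p = 0.0463), with 1.07 at its second probe.

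Among the genes that license origins, Cdt1, which brings the ring to DNA, and Gmnn, encoding geminin, which binds and blocks Cdt1, both rose. Cdt1 read -0.02, 0.81, -0.17 and 0.20 in C and 2.02, 2.15, 2.25 and 2.58 in MCD. No MCD array came near the C arrays, and with a difference of 2.05 ± 0.28 it had the smallest adjusted p of the members in this comparison (7.29e-06, limma). Gmnn lay between -1.84 and -0.81 in C and between -0.37 and 0.40 in MCD, 1.46 ± 0.37 apart. Of the 7 tested genes of origin firing, Gins2, a GINS subunit, and Cdc45 rose. Gins2 read -3.58, -2.30, -3.37 and -2.61 in C and -0.66, -0.65, -0.97 and -0.79 in MCD, a 4.59-fold difference without overlap. Cdc45 (1.02 ± 0.37) overlapped between groups and was well above background on 2 of the 4 C arrays. It entered the test only through the 4 MCD arrays of this comparison, so its call is no independent result. That call was kept under 2 of the 8 other settings and in 3 of 8 fits with 1 array left out. Gins1, another subunit of the complex, was 0.81 higher and just missed the threshold (limma, adjusted p = 0.0503), while Dbf4, the activator of Cdc7, differed by -0.15.

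Of the 6 polymerase and primase genes, Pola1, the catalytic subunit of the polymerase that starts each strand, rose by 1.41 ± 0.43. Both primase subunits, Prim1 (1.42 ± 0.30) and Prim2 (1.14 ± 0.39), and Pole, the catalytic subunit of the leading-strand polymerase (1.20 ± 0.34), also rose. For Prim2 a second probe gave -0.25, so that its rise rests on 1 of its 2 probes. Pold1, the catalytic subunit of the lagging-strand polymerase, was 0.64 higher without passing, and Pola2 was 0.57 lower in MCD, a log2 difference of -0.57 that did not pass either. Pcna, the sliding clamp, read 2.03, 2.61, 2.81 and 2.69 in C and 3.30, 3.65, 3.83 and 3.69 in MCD, and rose by 1.08 ± 0.37 with no overlap. Among the 4 tested subunits of RFC, which loads the clamp, Rfc5 rose by 0.67 ± 0.23. The 3 subunits of RPA, which coats single strands, differed by -0.13 to 0.30, and 0 of 3 passed (limma), also at an unadjusted p under 0.05. For Rpa1 a second probe gave 0.61.

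Both tested genes of lagging-strand maturation rose. Fen1, the flap endonuclease, read -0.46, 0.00, 1.28 and 0.24 in C against 2.30, 2.36, 2.65 and 1.76 in MCD, a difference of 2.01 ± 0.33 with the lowest MCD array above the highest C array. Lig1, the ligase, rose by 0.79 ± 0.29 and its groups did not overlap either. Among the 5 genes of nucleotide supply, Rrm1, the large subunit of ribonucleotide reductase, rose by 0.94 ± 0.34. Rrm2, the small subunit, differed by 1.05 with limma's adjusted p = 0.12, and its C arrays spread from 0.77 to 3.72. Thymidylate synthase Tyms (0.05) and thymidine kinase Tk1 (-0.37, with -1.16 at a second probe) did not pass the test.

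The largest differences belonged to genes that act on the new chromatin or repair it. Uhrf1, which recognises half-methylated DNA behind the fork and brings in the maintenance methyltransferase, read -3.24, -3.01, -3.13 and -3.27 in C and -0.12, 0.18, -0.01 and -0.46 in MCD. Its 8.34-fold rise was 3.06 ± 0.65 on the log2 scale (limma, adjusted p = 0.000989), and the gap between the groups was 2.55. Chaf1a, of the chromatin assembly factor CAF-1, rose by 1.29 ± 0.33, and its partner Chaf1b differed by 0.56 without passing, with 1.12 at a second probe. Rad51ap1, a gene of DNA repair, read -4.11, -3.11, -3.61 and -5.57 in C and -0.84, -0.62, -1.0 and -2.17 in MCD. It was 7.68-fold higher with no overlap, and 3 of the 4 C arrays were well above background. The 4 E2F genes did not follow. E2f1 and E2f2, which activate S-phase genes, differed by -0.61 and -0.20, the repressor E2f8 by 0.16 and the repressor E2f7 by -0.84 at 1 probe and 1.07 at another. For E2f7 the direction was therefore not settled, and 0 of the 4 passed (limma; 1 at an unadjusted p under 0.05).

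**Figure D3:**
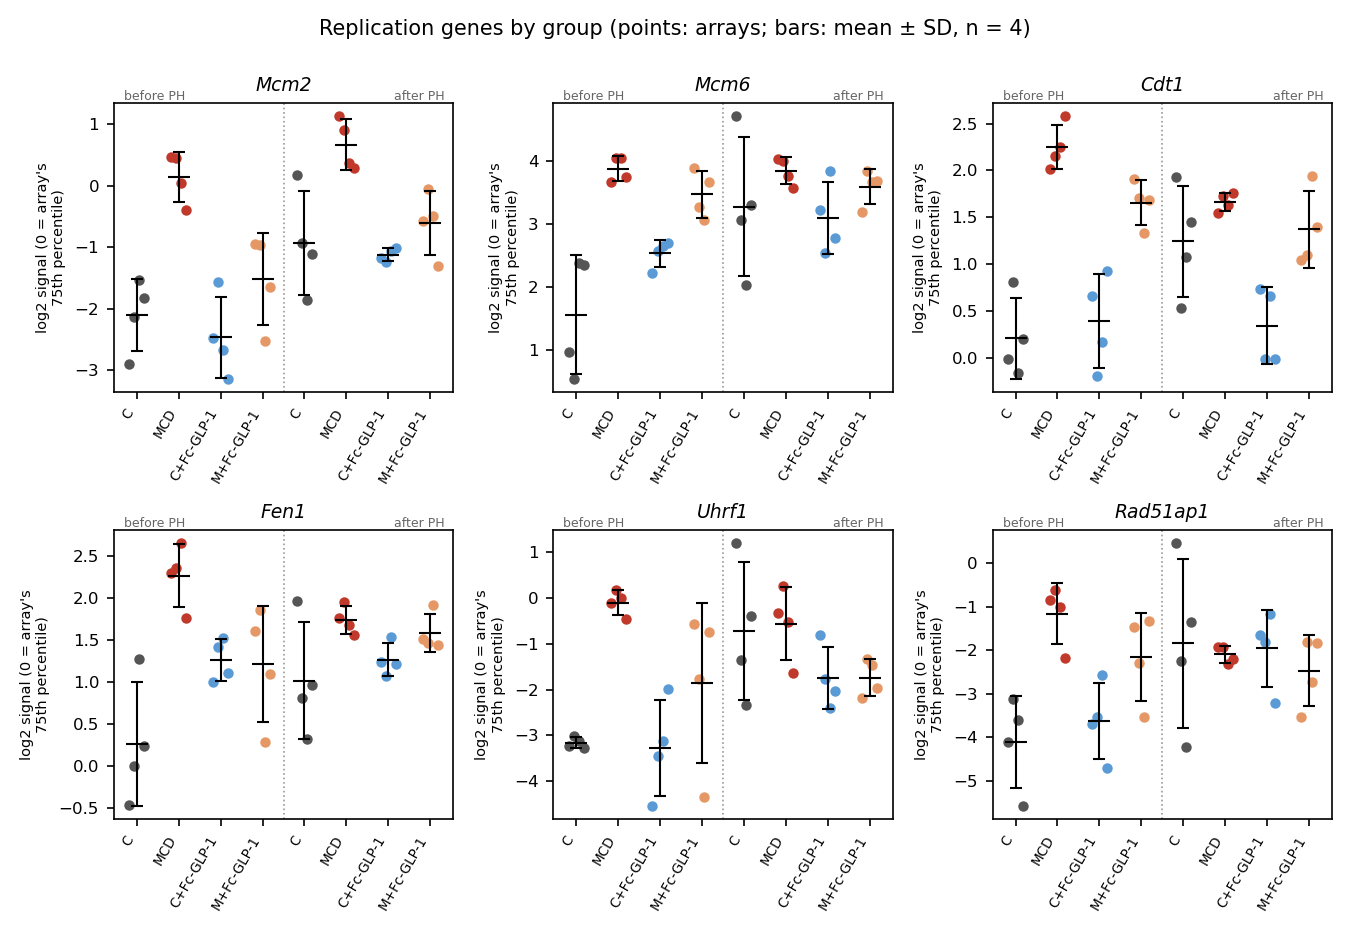
Levels of Mcm2, Mcm6, Cdt1, Fen1, Uhrf1 and Rad51ap1 on each of the 32 arrays by group, as log2 signal minus the array's 75th percentile, with group means as bars. In all 6 genes every MCD array before PH lies above every C array before PH.

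Other genes of the cycle were measured beside the members. Of 22 tested mitosis genes 21 rose in MCD before PH and 0 fell, with a median difference of 2.80, beside the members' 0.67 (the difference between the lists was not tested). Cdc20, the activator of the anaphase-promoting complex, rose by 3.72 and Tpx2, a spindle assembly factor, by 3.83. Of 41 other replication fork genes 10 rose and 2 fell, with a median of 0.57. Dtl, which targets Cdt1 for destruction, rose by 2.85 and Mcm8 by 1.73, and Rnaseh2a, a subunit of the RNase that removes primers, fell by 1.57. Among 22 genes of E2F and G1/S control 7 rose and 3 fell, with cyclins Ccnd1 (3.23) and Ccne1 (2.33) among those that rose. Macrophage markers moved the same way. Of 12 such markers 9 rose and 1 fell, and their summed level, in units of the 75th percentile, was 86.4 to 139.6 on the C arrays and 168.1 to 460.2 on the MCD arrays. Among the markers of other cells, 3 of 7 for neutrophils, 3 of 8 for stellate cells, 3 of 9 for T and NK cells, 1 of 6 for B cells, 1 of 7 for erythroid cells, 1 of 6 for endothelial cells and 0 of 5 for bile duct cells rose, while 2 each of the T and NK, erythroid and hepatocyte markers and 1 B cell marker fell. The part of other cell types in the rise of the members was not tested.

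The same diet contrast was drawn in mice given Fc-GLP-1, again within 1 slide and with no array in common. Of the 45 members 5 passed between M+Fc-GLP-1 and C+Fc-GLP-1 before PH, with 4 up and 1 down on the MCD diet, 11.1% against 10.6% of all genes, and a share this near to that of all genes is no result about the members as a group. The median difference was 0.30, against 0.03 over all genes. Gmnn read -2.33, -1.36, -1.24 and -1.24 in C+Fc-GLP-1 and 0.80, -0.06, -0.54 and 1.19 in M+Fc-GLP-1, a difference of 1.89 ± 0.37 without overlap (limma, adjusted p = 0.000968). Cdt1 read 0.66, -0.20, 0.17 and 0.93 against 1.91, 1.71, 1.33 and 1.68, and rose by 1.27 ± 0.28. These opposed regulators of licensing, with Gins2 (1.36 ± 0.40), were higher on the MCD diet with and without the drug, 3 of the 20 members called without it and 3 of the 5 called with it. Chaf1b rose by 1.15 ± 0.29. Rfc3, a clamp loader subunit whose promoter is printed above, fell by 1.34, with M+Fc-GLP-1 arrays at -3.64, -1.23, -3.06 and -2.27, of which 2 were well above background. Leaving out replicate 3 of M+Fc-GLP-1, on which the members lay low, gave 9 calls, and leaving out replicate 1 gave 3. Mitosis genes rose as well, 6 of 22 with 0 lower and a median of 1.32, while 0 of 12 macrophage markers rose and 1 fell.

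**Figure D4:**
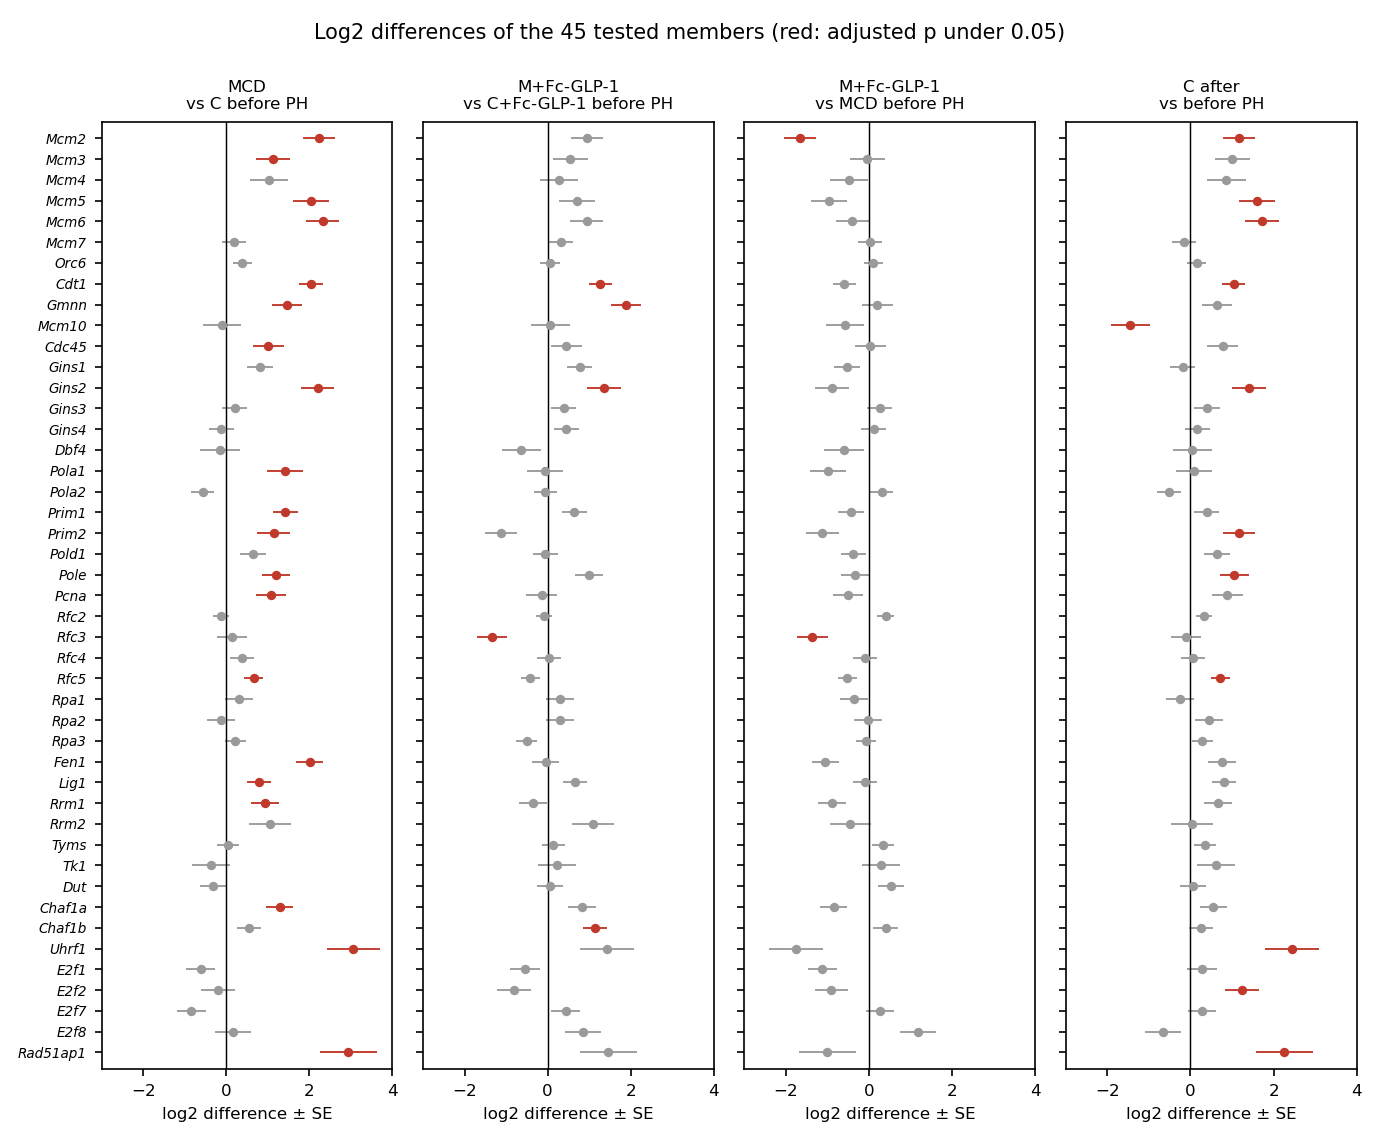
Log2 differences of the 45 tested members with their SE (bars) in 4 comparisons, the MCD diet effect without and with Fc-GLP-1 before PH, the Fc-GLP-1 effect on the MCD diet before PH and the change on chow from before to after PH, where red marks an adjusted p under 0.05. All 20 red points lie to the right of 0 for the diet without drug, and with the drug 4 of 5 do.

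What the drug did on the MCD diet before PH was set against its effect on chow. Of the 45 members 2 fell in M+Fc-GLP-1 against MCD and 0 rose, 4.44%, with 6.75% of all genes passing in either direction and 2.99% lower. The median of the members was -0.40, against 0.06 over all genes, and 31 of the 45 differences were below 0. Mcm2 read -0.95, -0.96, -2.52 and -1.64 with the drug, all below the lowest of the 4 MCD arrays (-0.40), and fell by 1.66 (SE 0.39, limma, adjusted p = 0.0119). Rfc3 fell by 1.37, with 1 M+Fc-GLP-1 array within the range of MCD. Uhrf1 had the largest difference, -1.75 ± 0.65, and did not pass (limma, adjusted p = 0.0946), its M+Fc-GLP-1 arrays at -0.57, -1.76, -4.34 and -0.74. Its lowest array, replicate 3, was also low in Mcm2 and in Mcm5 (-0.94). Without that array 0 members passed, without M+Fc-GLP-1 replicate 2 there were 4, and without MCD replicate 1 or 3 there was 1. The count also depended on the scale. It was 11 when arrays were centred on their median, which moved the median of all genes by -0.32 in this comparison, 10 after normexp and quantile normalization and 9 on the authors' values. Macrophage markers fell, 7 of 12, and their summed level was 63.2 to 146.1 in M+Fc-GLP-1. Of 7 neutrophil markers 2 fell and 1 rose, and 2 of 8 stellate cell markers fell. None of the 22 mitosis genes passed (limma), with a median of -1.17.

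On chow, 0 of the 45 members passed between C+Fc-GLP-1 and C before PH by limma, 7 at an unadjusted p under 0.05, where 2.30% of all genes passed. The 3 largest differences were -1.20 for E2f1, 1.13 for Prim2 and -1.01 for E2f7. Those of Prim2 and E2f7 rest on 1 probe each, and in MCD against C before PH their second probes had the opposite sign. Without C replicate 2, 3 or 4 the count was 1, and it was 3 with median centring and 4 both after normexp and on the authors' values. In the difference between the drug's effects on the MCD diet and on chow, constant differences between slides cancel. It passed for 3 of the 45 members (6.67%), all lower. Of all genes 5.85% passed in either direction and 2.95% were lower. Fen1 read 1.00, 1.42, 1.53 and 1.11 in C+Fc-GLP-1, a drug difference of 1.00 on chow, and 1.61, 1.86, 0.29 and 1.10 in M+Fc-GLP-1, a drug difference of -1.05 on the MCD diet, and neither passed on its own. The difference of these effects was -2.05 ± 0.47 (limma, adjusted p = 0.0128). For Rfc5 it was -1.09 ± 0.32, and for Prim2 it was -2.25 ± 0.55 at the probe used and 0.00 at its second probe. The count was 5 without C+Fc-GLP-1 replicate 4, 12 with median centring, which shifted all genes by -0.62 here, and 1 both after normexp and on the authors' values.

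After PH the livers of MCD-fed and chow-fed mice differed in 3 of the 45 members. Of these 1 rose and 2 fell in MCD against C, 6.67% against 12.5% of all genes, with a median of 0.14. Mcm2 read 0.18, -0.93, -1.86 and -1.11 in C and 1.13, 0.90, 0.37 and 0.28 in MCD, and rose by 1.60 ± 0.39 with a narrow gap of 0.10 between the groups. It was the member called in the diet comparison both before and after PH. Tk1, which salvages thymidine, fell by 1.41 from 3.87, 3.60, 2.98 and 3.07 to 1.33, 2.55, 1.81 and 2.18. E2f1 fell by 1.25, with C arrays at 1.14, 0.27, 0.30 and 0.88 and MCD arrays at -0.99, -0.31, -0.64 and -0.45. The count was 1 without C replicate 4 and 1 without MCD replicate 1. With single arrays left out, Mcm2 kept its call in 8 of 8 fits, E2f1 in 5 and Tk1 in 1. Under the 8 other settings Mcm2 and E2f1 kept theirs in 8 and Tk1 in 4. Of the cell markers, 4 of 7 for neutrophils rose and 2 of 8 for stellate cells fell, and their part was not tested.

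Under Fc-GLP-1 after PH, 3 members rose and 2 fell in M+Fc-GLP-1 against C+Fc-GLP-1, 11.1% against 13.1% of all genes. Both CAF-1 subunits were among those that rose, Chaf1b by 1.15 ± 0.29 and Chaf1a by 1.07 ± 0.33. Chaf1b read 1.42, 0.73, 1.87 and 1.24 in C+Fc-GLP-1 and 2.58, 2.22, 2.68 and 2.39 in M+Fc-GLP-1, with no overlap, and a second probe differed by 0.91. Cdt1 rose by 1.03 ± 0.28. E2f1 fell by 1.18 from 0.18, 0.15, 0.29 and 0.14 to -1.05, -1.11, -1.05 and -0.72, again without overlap, as in the mice without the drug. E2f2 fell by 1.24 with groups that barely overlapped. Counts were 2 without C+Fc-GLP-1 replicate 4 or M+Fc-GLP-1 replicate 2, and 3 without C+Fc-GLP-1 replicate 2 or M+Fc-GLP-1 replicate 1 or 3. Of the mitosis genes, 6 of which had risen in this contrast before PH, 0 of 22 were higher and 10 lower after it, with a median of -1.51, while the members had a median of 0.20. Of 6 B cell markers 4 fell in the same contrast.

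**Figure D5:**
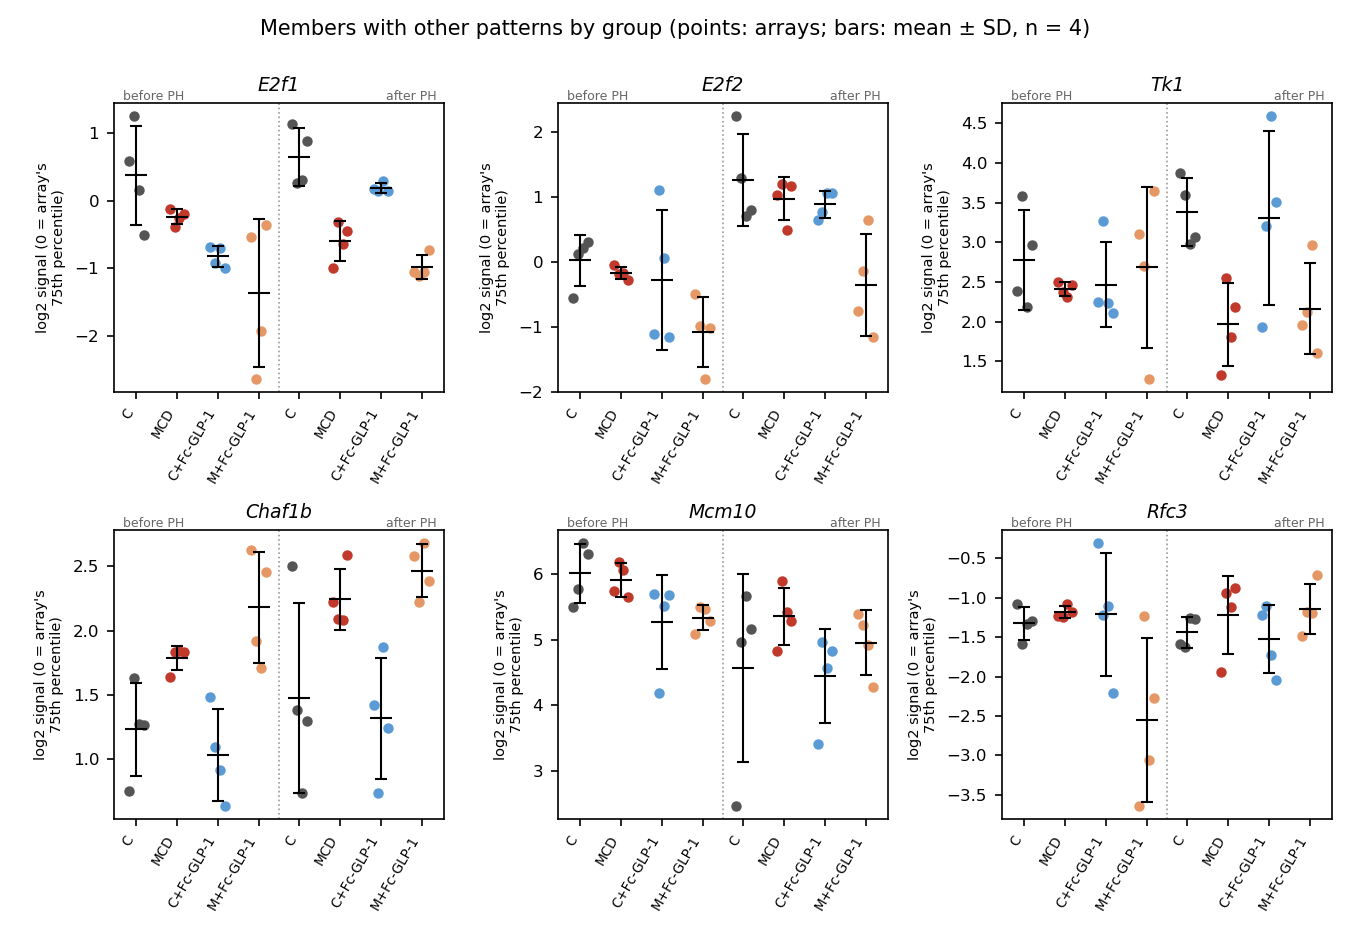
Levels of E2f1, E2f2, Tk1, Chaf1b, Mcm10 and Rfc3 on each of the 32 arrays by group, as log2 signal minus the array's 75th percentile, with group means as bars. After PH every E2f1 array of the MCD-diet groups lies below every array of the matching chow group, and Rfc3 is low on 3 of the 4 M+Fc-GLP-1 arrays before PH.

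Few members passed the test for a drug effect after PH, where drug, slide and scanner cannot be told apart. Against MCD, M+Fc-GLP-1 after PH had 2 members lower and 0 higher, 4.44% against 6.72% of all genes. Mcm2 fell by 1.28 without overlap, its 4 arrays at -0.57, -0.06, -0.49 and -1.31, and E2f2 fell by 1.33 with overlap. The count moved with single arrays. Without MCD replicate 1 or 2 or M+Fc-GLP-1 replicate 1 it was 0, and without MCD replicate 3 or M+Fc-GLP-1 replicate 2, 3 or 4 it was 1. The third largest difference was 1.27 for Dbf4, which did not pass. In the same comparison 6 of 7 neutrophil markers fell (median -2.89), as did 3 of 12 macrophage and 2 of 6 B cell markers, and their part was not tested. On chow 0 of 45 passed (limma, 2 at an unadjusted p under 0.05), where 2.24% of all genes did, and the largest differences were -1.03 for Uhrf1, -0.90 for Cdt1 and -0.62 for Lig1. Without C replicate 2 there was 1.

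At 2 weeks after PH the chow-fed livers were compared with those before it. Of the 45 members 11 rose and 1 fell in C after PH, 26.7%, where 14.3% of all genes passed in either direction and 6.27% were higher, with a median of 0.44 against -0.07. Uhrf1 rose by 2.44 ± 0.65, its arrays after PH at 1.19, -1.35, -2.34 and -0.39, all above the 4 arrays before. Rad51ap1 rose by 2.26 ± 0.68, with arrays at 0.45, -2.24, -4.22 and -1.36 that reached into the range before PH. Mcm6 (1.72), Mcm5 (1.60), Gins2 (1.41), E2f2 (1.24), Prim2 (1.17, with -0.02 at the second probe), Mcm2 (1.16), Pole (1.06), Cdt1 (1.04) and Rfc5 (0.71) rose too. Among these 11, Uhrf1, E2f2 and Rfc5 had groups that did not overlap. In every one of Uhrf1, Rad51ap1, Mcm5, Mcm6, Mcm2, Gins2 and Cdt1 replicate 1 of C after PH was the highest array of its group.

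Replicate 1 of C after PH decided much of this comparison. Its summed macrophage marker level was 806.2, against 167.2 to 366.7 on the other 3 arrays, and its median over mitosis genes 2.75 above their means. Without it 1 member passed, Mcm6 (limma, adjusted p = 0.0372). Without C after PH replicate 2 or 4 the count was 7, and without C before PH replicate 1 or 4 it was 6. With the spread estimated from these 8 arrays alone 0 members passed, and with dim probes kept 7 did. Mitosis genes rose as well, 17 of 22 with a median of 2.08, as did 11 of 12 macrophage markers, 4 of 7 neutrophil markers (S100a8 by 3.80), 2 of 8 stellate cell markers, 4 of 41 other replication fork genes (1 fell) and 3 of 22 genes of E2F and G1/S control (1 fell), while 2 of 7 hepatocyte markers fell. The part of other cells in these changes was not tested.

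Mcm10, which helps to start the helicase, was read by a single probe, well above background on all 32 arrays, and whether that probe measures Mcm10 alone was not tested. It fell by 1.45 in C after PH, from 5.50, 5.77, 6.47 and 6.31 to 2.46, 4.97, 5.66 and 5.17, with replicate 1 the lowest of its group. Within groups it had a correlation of -0.53 with the mean of the other members over the 32 arrays, the lowest of all 45.

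In the other regimens few members differed between the times. In MCD 1 member passed, against 9.57% of all genes. This was Rfc2, a clamp loader subunit, up by 0.63 from 2.60, 2.97, 2.86 and 2.79 to 3.31, 3.44, 3.58 and 3.40. Its call was kept in 0 of the 8 fits that left out 1 of these arrays. E2f2 (1.15) and Dbf4 (-1.10) had larger differences that did not pass. In C+Fc-GLP-1 0 of 45 passed (limma, 9 at an unadjusted p under 0.05), where 0.854% of all genes did. The largest differences had the direction seen on chow alone, 1.66 for Rad51ap1, 1.53 for Uhrf1 and 1.34 for Mcm2, and without C+Fc-GLP-1 before PH replicate 2 there was 1 call. In M+Fc-GLP-1 Rfc3 rose by 1.41 ± 0.37, against 1.63% of all genes, and kept the call in 2 of the 8 fits that left out 1 array. E2f8 (-1.17) and Rrm1 (1.04) followed without passing.

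Tests of whether these changes differed gave 0 members in each of 3 cases by limma, with 5 of 45 at an unadjusted p under 0.05 in each. The change over time under Fc-GLP-1 was compared between diets (0.0902% of all genes passed), and the largest values were -1.97 for Rad51ap1, 1.73 for Rfc3 and -1.41 for Uhrf1. The drug effect was compared between times on chow (1.14% of all genes), with -1.31 for Prim2, -1.16 for Mcm6 and -1.13 for Pcna. On the MCD diet (1.78% of all genes) the largest were 1.88 for Dbf4, 1.45 for Rfc3 and -1.14 for E2f8, and without M+Fc-GLP-1 before PH replicate 2 there was 1 call. Both comparisons of the drug effect between times cannot be told apart from slide and scanner.

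Several members given as examples of their roles passed the test in no comparison. Group means of Pold1 ran from 0.67 in M+Fc-GLP-1 after PH to 1.57 in MCD before PH, those of the clamp loader Rfc4 from 1.08 to 1.46 and those of Tyms from -2.59 to -2.08. Rpa2 ran from -1.31 in C+Fc-GLP-1 before PH to -0.44 in both C and M+Fc-GLP-1 after PH. Gins1 was lowest in C+Fc-GLP-1 before PH (0.26) and highest in MCD before PH (1.56), and Rrm2 had the same lowest and highest groups (1.55 and 3.08). E2f8 ran from -0.41 in C after PH to 1.59 in M+Fc-GLP-1 before PH and E2f7 from -2.93 to -1.64. None of these 8 passed in any of the 16 comparisons, with ranges of group means up to 2.00 for E2f8 and 1.54 for Rrm2. Lowest and highest groups were tested against each other only where a comparison joined them.

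Arrays of 1 group differed together in these genes. For each member the deviations from its group means were correlated over the 32 arrays with the mean deviation of the other members, as a description, since arrays share their scaling. The median correlation was 0.32, and 15 members were above 0.5, led by Rad51ap1 (0.81), Chaf1a (0.79), Chaf1b (0.78) and Mcm5 (0.72). Prim1 (-0.05) and Pola1 (0.10), both higher in MCD before PH, did not move with the rest inside groups. The members' mean deviation and that of the mitosis genes had a correlation of 0.81. The genes outside the set with the closest pattern were the cohesion factor Cdca5 (0.85), Trip13 (0.83), Dtl (0.83), Ercc6l (0.82), Hrob (0.82), Incenp (0.82), Fignl1 (0.81), Kif22 (0.80) and the proliferation marker Mki67 (0.79), followed by a transcript without a gene name (0.78).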

How the data were processed

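Liver RNA of 32 samples was labelled with Cy3 and hybridised to 1-colour Agilent arrays. Per the file headers, the deposited intensity values were background-subtracted and detrended within each array by Feature Extraction and not scaled between arrays. The authors' own deposited log2 values, made with limma (version not given in the sources used here) and normalized separately before and after PH, served as an alternative.

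Intensities were turned to log2 and centred on each array's 75th percentile, whose intensity ran from 180.2 to 647.5. A probe had to be well above background on every array of some group, and the brightest such probe stood for its gene. All 8 groups were fitted with limma 3.58.1 (R 4.3.3), with Benjamini-Hochberg adjustment over 21073 genes. The small number of arrays limits the precision. The p-values set each difference against the spread between livers within groups, pooled over the 8 groups and moderated across genes. That spread holds no difference between slides or scanners. Members and gene lists were chosen with earlier results of these data known. Named were the members past the threshold, up to the 12 largest, or else the 3 largest differences, with examples set for each role, the 10 genes of closest pattern and up to 4 genes of each other list. In simulated data for C+Fc-GLP-1 after against before PH (21073 genes, 200 of them changed), 23% of log2 changes of size 1 and 82% of size 2 were recovered, with 8 false calls. Alternatives were normexp, 2 other centrings, the authors' values, no filter, probe means, fewer arrays in the fit, the replicate block and leaving out single arrays. Labels disagree on the drug, called Fc-GLP-1 or a dual agonist.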

Additional observations from a re-analysis of the deposited data

Results flagged for a closer look

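Single arrays stood apart from the other 3 of their group by Dixon's ratio in 16 of 360 tests over members and groups, 4.4%, where chance gives about 1 in 20. Among the members set as examples (184 tests) there were 8. Below the rest were Pold1 on C before PH replicate 1 (0.25) and Chaf1b on MCD before PH replicate 1 (1.64). Above the rest were Fen1 on M+Fc-GLP-1 after PH replicate 3 (1.92), Rrm2 on MCD after PH replicate 2 (3.56), Tyms on C after PH replicate 1 (-1.87), Tk1 on C+Fc-GLP-1 before PH replicate 2 (3.27), E2f1 on M+Fc-GLP-1 after PH replicate 4 (-0.72) and E2f7 on M+Fc-GLP-1 after PH replicate 1 (-1.0). The median deviation of all tested members stood apart on MCD before PH replicate 1 (0.23, the lowest of a narrow group) and on M+Fc-GLP-1 before PH replicate 3 (-0.31).

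The effect of Fc-GLP-1 before PH differed between the MCD diet and chow for Prim2 (-2.25), Fen1 (-2.05) and Rfc5 (-1.09), by limma's interaction term. These are 6.67% of the 45 members, against 5.85% of all genes in either direction and 2.95% lower. Under the 8 other settings Fen1 kept its call in 8, Prim2 in 5 and Rfc5 in 2. With single arrays left out, Fen1 and Prim2 kept it in 16 of 16 fits and Rfc5 in 5. For Prim2 the difference was seen at 1 of its 2 probes.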

How the results depend on the processing

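Counts are of 45 members past the threshold. MCD against C before PH gave 20, and 16 to 26 under the 8 settings. Of 54 called differences 19 kept their call under the 8 settings and 16 of these also under every removal of an array, and 0 changed sign. Kept throughout were Cdt1, Chaf1a, Fen1, Gins2, Gmnn, Mcm2, Mcm5, Mcm6, Pole, Prim1, Rad51ap1 and Uhrf1 in that comparison, Cdt1 and Gmnn in M+Fc-GLP-1 against C+Fc-GLP-1 before PH, Mcm2 in MCD against C after PH, and Fen1 in the diet by drug test. The causes of the following moves were not tested.

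Normexp with quantile normalization gave 4 for C+Fc-GLP-1 against C before PH, 10 for M+Fc-GLP-1 against MCD before PH, 1 for C+Fc-GLP-1 against C after PH, 0 for MCD and 2 for C+Fc-GLP-1 after against before PH, 0 for M+Fc-GLP-1 over time, 1 for diet by drug and 2 for drug by time on chow. In the same order, the authors' values gave 4, 9 and 1, then 4 for C+Fc-GLP-1 over time, 0 for M+Fc-GLP-1 over time, 1 and 2, and 3 for M+Fc-GLP-1 against C+Fc-GLP-1 before PH. Median centring gave 3 for C+Fc-GLP-1 against C before PH, 11 for M+Fc-GLP-1 against MCD before and 1 after PH, 3 for M+Fc-GLP-1 against C+Fc-GLP-1 after PH, 0 for MCD over time and 12 for diet by drug. It moved the median of all genes by 0.34 for MCD against C before PH and by 0.18 for C over time. Centring on probes detected on all arrays gave 2 for MCD over time. Without a filter there were 5 for M+Fc-GLP-1 against MCD before and 0 after PH, 3 for M+Fc-GLP-1 against C+Fc-GLP-1 after PH, 7 for C over time and 0 for MCD over time. Probe means gave 4 for M+Fc-GLP-1 against MCD before PH, 2 for MCD and 1 for C+Fc-GLP-1 over time. A fit of the compared groups alone gave 3 for M+Fc-GLP-1 against C+Fc-GLP-1 both before and after PH, 1 for M+Fc-GLP-1 against MCD after PH, and 0 for C and for M+Fc-GLP-1 over time.

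Leaving out single arrays gave ranges of 14 to 20 for MCD against C before PH and 1 to 4 after, 0 to 1 for C+Fc-GLP-1 against C before and after, 0 to 4 for M+Fc-GLP-1 against MCD before and 0 to 2 after, 3 to 9 for M+Fc-GLP-1 against C+Fc-GLP-1 before and 2 to 5 after, 1 to 14 for C over time, 0 to 1 for each other change over time, 2 to 5 for diet by drug, 0 to 0 for diet by time under the drug and for drug by time on chow, and 0 to 1 for drug by time on the MCD diet.

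The replicate block gave 18 for MCD against C before PH, 1 for M+Fc-GLP-1 against MCD after PH and 0 for M+Fc-GLP-1 over time. The replicate numbers were not taken as pairs in the main fit, and the labels do not pair single animals. Deviations of same-numbered arrays had correlations from -0.22 to 0.52 with a mean of 0.02. That mean is over 112 pairs from all 8 groups, including pairs across diets and treatments. It therefore cannot decide whether same-numbered arrays of a regimen before and after PH belong together. Of the 32 arrays, 18 correlated best with an array of their own number. Pairing within a regimen was not tested, and any such pairing was ignored in the changes over time. The block changed no other count by over 1.5 times. Signal over background limited the dim members, with Gins2 well above background on 3 and Cdc45 on 2 of the 4 C arrays before PH.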

Other observations

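Comparisons without arrays in common were set side by side as counts. The diet differences before PH without and with Fc-GLP-1 had the same sign in 30 of 45 members (66.7%, with 60.2% of all genes), those without the drug before and after PH in 33 (73.3%, with 65.7%), and those with the drug before and after PH in 32 (71.1%, with 66.3%). After PH the diet differences without and with the drug had the same sign in 37 members (82.2%, with 68.0% of all genes), and E2f1 passed in both. The changes over time with and without the drug had the same sign in 29 members on chow (64.4%, with 63.2%) and 24 on the MCD diet (53.3%, with 55.3%), close to the shares of all genes.

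Members that read low on M+Fc-GLP-1 before PH replicate 3 were accompanied by mitosis genes with a median deviation of -1.36, where the other 3 livers of the group lay at 0.24 to 1.07. The summed macrophage level of that liver was 63.2, against 95.0 to 146.1 in the other 3. Cyclin Ccne1, outside the set, was higher on the MCD diet under the drug both before (2.77) and after PH (2.90). Without the drug it was also higher on that diet, before (2.33) and after PH (1.94).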
